A study of Mus musculus with 6 samples.

Results

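The genes described here encode the respiratory chain and the ATP synthase, from both genomes that supply them. They were taken by position and name from the deposited gene table: every gene on the mitochondrial chromosome, and every nuclear protein-coding gene whose symbol starts with Nduf, Uqcr, Atp5 or Cox and a digit, or is Sdha, Sdhb, Sdhc, Sdhd or Cycs. This gave 115 of 35275 listed genes, 102 of them nuclear and 13 mitochondrial. All 13 mitochondrial genes are protein-coding. No ribosomal or transfer RNA gene was listed on that chromosome, so none was analysed here. Of the 115 genes, 107 reached a mean of 1 FPKM over all libraries and were tested, 95 nuclear and 12 mitochondrial.

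Expression was measured by RNA-seq in B cells isolated with a magnetic pan-B cell kit from the spleens of mice carrying an altered CD40 ligand, CD40LΔ5, and of wild-type (WT) mice, with 3 libraries per group. Per the labels, mice of both groups were C57BL/6, 6 to 8 weeks old, and were sampled on day 8 after an injection of sheep red blood cells, an antigen that starts germinal centre responses. The genotype belongs to the whole animal, and CD40 ligand is known mainly as a product of activated T cells rather than of B cells. Whether the 3 libraries of a group stem from separate animals is not in the labels, so p-values measure the spread between these libraries only.

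The respiratory chain passes electrons from NADH (complex I) and succinate (complex II) through complex III and cytochrome c to oxygen (complex IV), and complex V uses the resulting proton gradient to make ATP. Complexes I, III, IV and V join subunits made from nuclear genes with a few made inside the organelle, whereas complex II is wholly nuclear. Mitochondrial mRNAs are cut from long transcripts that cover many genes, so these genes are not independent of each other. Activated B cells, germinal centre cells and plasma cells are known to differ from resting B cells in mitochondrial mass and activity.

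Each library held 24320080 to 27866611 reads on genes. B cell markers were abundant, with Ms4a1 at 569 to 620 FPKM in CD40LΔ5 libraries and 536 to 618 FPKM in WT libraries, while the T cell marker Cd3e lay at 3.03 to 4.21 FPKM. Cd40lg itself was listed at 0.118, 0.483 and 0.144 FPKM in CD40LΔ5 replicates 1, 2 and 3 and at 0.533, 0.428 and 0.203 FPKM in WT replicates 1, 2 and 3, levels that do not check the labels. The deposited sources place the libraries in groups in more than one way. The authors' deposited table of means averages CD40LΔ5 replicate 2 with WT replicates 1 and 2 as MUT, and CD40LΔ5 replicates 1 and 3 with WT replicate 3 as WT, matching the libraries to within 3.33e-08 FPKM. Both placements are therefore given, by the labels and by that table, whose sets are called the MUT-mean and the WT-mean libraries below.

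The mitochondrial genes were listed at very unequal levels, and the 5 tested genes at the low level were those with nearly all of their sequence also in annotated genes on chromosome 1. Mouse chromosome 1 holds a nuclear copy of a stretch of the mitochondrial genome, and 7 annotated genes there shared at least 50% of their 50-base stretches with 1 mitochondrial gene. All 7 lie on the minus strand between chr1:24611535 and chr1:24616197 (GRCm38) and are in the deposited table. The copies of mt-Co2, mt-Co3, mt-Atp6 and mt-Nd4l were 100% identical to the mitochondrial gene over the compared bases. The copy of mt-Nd3, Gm28438, was 99.71% identical, with the single substitution T3C, counted from the first base of mt-Nd3 with the mitochondrial base first. The copy of the end of mt-Co1, Gm29216, was 98.78% identical, and the copy of the start of mt-Nd4, Gm28439, 100%. The first 90 bases of both kinds of pair are shown because they set what reads can tell apart; capitals mark the base that differs, and each copy is read along its own strand. The genomic places are MT:9459-9548 (+) for mt-Nd3, chr1:24613030-24613119 (-) for Gm28438, MT:7013-7102 (+) for mt-Co2 and chr1:24615476-24615565 (-) for Gm28661, all in GRCm38. The mt-Co2 pair had 0 differences here.
mt-Nd3: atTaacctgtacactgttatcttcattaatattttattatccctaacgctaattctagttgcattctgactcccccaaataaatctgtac
Gm28438: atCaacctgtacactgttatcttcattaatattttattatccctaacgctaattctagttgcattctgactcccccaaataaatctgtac
mt-Co2: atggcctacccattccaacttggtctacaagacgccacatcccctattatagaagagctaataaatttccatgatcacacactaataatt
Gm28661: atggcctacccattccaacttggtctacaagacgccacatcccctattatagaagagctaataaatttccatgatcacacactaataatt

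The 5 mitochondrial genes with at least 98% of their 50-base stretches shared with other annotated genes were listed at mean levels of 5.682 to 63.97 FPKM (median 38.99). The 5 genes with under 9% shared were listed at 1037 to 3196 FPKM (median 1581), and the ratio of these medians was 40.6. The groups of genes did not overlap in level. mt-Co1, the catalytic core of complex IV, with 51.1% shared, averaged 6783 FPKM, and mt-Nd4, a proton-pumping subunit of complex I, with 62.2% shared, averaged 1386 FPKM.

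Among the complex IV genes, mt-Co1 was listed at 6394, 7381 and 5862 FPKM in CD40LΔ5 replicates 1, 2 and 3 and at 6565, 8243 and 6254 FPKM in WT replicates 1, 2 and 3. Its neighbour mt-Co2, which carries the first copper site of the complex, was listed at 72.41, 61.81 and 49.89 FPKM in the CD40LΔ5 libraries and at 67.86, 83.44 and 48.43 FPKM in the WT libraries. mt-Co2 was thus far below mt-Co1 in every library, although both are core subunits of the same complex. mt-Co3, the third mitochondrial subunit of complex IV, lay at 57.22, 46.79 and 36.94 FPKM in the CD40LΔ5 libraries and at 48.96, 54.23 and 38.09 FPKM in the WT libraries.

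For complex V, mt-Atp6, the subunit that forms the proton channel, lay at 44.2, 41.27 and 31.2 FPKM in the CD40LΔ5 libraries and at 38.71, 46.31 and 32.25 FPKM in the WT libraries. mt-Atp8, which lies between mt-Co2 and mt-Atp6 and overlaps mt-Atp6, had 0 to 2 reads per library. None of its 50-base stretches is shared with another annotated gene, but only annotated transcripts were searched. The listed copies of mt-Co2 and mt-Atp6 run in the same order as the mitochondrial genes with 1 constant offset, and by that offset mt-Atp8 falls at chr1:24614609-24614812 (GRCm38), partly within Gm10925 and partly in the gap between it and Gm28661. The chromosome 1 sequence between these copies was not analysed here, so whether mt-Atp8 has a copy was not tested. Its mean of 0.154 FPKM left it out of the tests.

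The complex I genes showed both levels. mt-Nd1 was listed at 2893, 3003 and 2622 FPKM in the CD40LΔ5 libraries and at 3132, 3146 and 2882 FPKM in the WT libraries, and it varied least of the 12 tested mitochondrial genes, by 1.2-fold between the highest and the lowest library. mt-Nd3 was listed at 8.988, 8.794 and 7.734 FPKM in the CD40LΔ5 libraries and at 7.653, 12.17 and 6.77 FPKM in the WT libraries. mt-Nd4l, with 26 to 61 reads per library, varied most, by 2.54-fold. mt-Nd2 and mt-Nd5 averaged 1532 ± 140 and 1004 ± 93.4 FPKM in CD40LΔ5 libraries and 1631 ± 142 and 1070 ± 148 FPKM in WT libraries (SD, n = 3 each).

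mt-Nd6 is the only one of the 13 encoded on the other strand. It was listed at 1063, 1104 and 993.3 FPKM in the CD40LΔ5 libraries and at 1089, 1554 and 1046 FPKM in the WT libraries, with WT replicate 2 above the rest. The TruSeq RNA kit named in the labels does not mark the strand, so reads of mt-Nd6 and of RNA from the opposite strand cannot be told apart. mt-Cytb, the mitochondrial subunit of complex III, lay at 2880, 3622 and 2730 FPKM in the CD40LΔ5 libraries and at 3015, 4090 and 2837 FPKM in the WT libraries.

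The copies of mt-Co2, mt-Co3, mt-Atp6 and mt-Nd4l were listed within 2-fold of the mitochondrial gene in each library, the copy of mt-Nd3 above it, and the copies of mt-Co1 and mt-Nd4 far below it. The ratio of copy to mitochondrial gene, in FPKM, was 0.945 to 1.16 over the 6 libraries for mt-Co2, 0.90 to 0.965 for mt-Co3, 1.43 to 1.64 for mt-Atp6, 0.696 to 1.40 for mt-Nd4l and 2.80 to 4.32 for mt-Nd3. For the partly shared genes the ratio was 0.00645 to 0.00874 (mt-Co1) and 0.00838 to 0.0125 (mt-Nd4). How reads that match more than 1 place were handled is not given in the sources used here, and its part in these levels was not tested. The reads of the 7 copies came to 3794 to 5172 in CD40LΔ5 libraries and to 3726 to 5159 in WT libraries, against 556525 to 618761 and 575251 to 672327 reads on the mitochondrial genes. The 5 genes with at least 98% shared make up 24.5% of the mitochondrial gene length but held 0.443 to 0.589% of the mitochondrial reads in CD40LΔ5 libraries and 0.409 to 0.516% in WT libraries. Their levels, and the levels of the copies, are uncertain, and mitochondrial sums below rest on the other genes, with mt-Co1 alone holding 44.7 to 46.1% of mitochondrial reads.

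**Figure D1:**
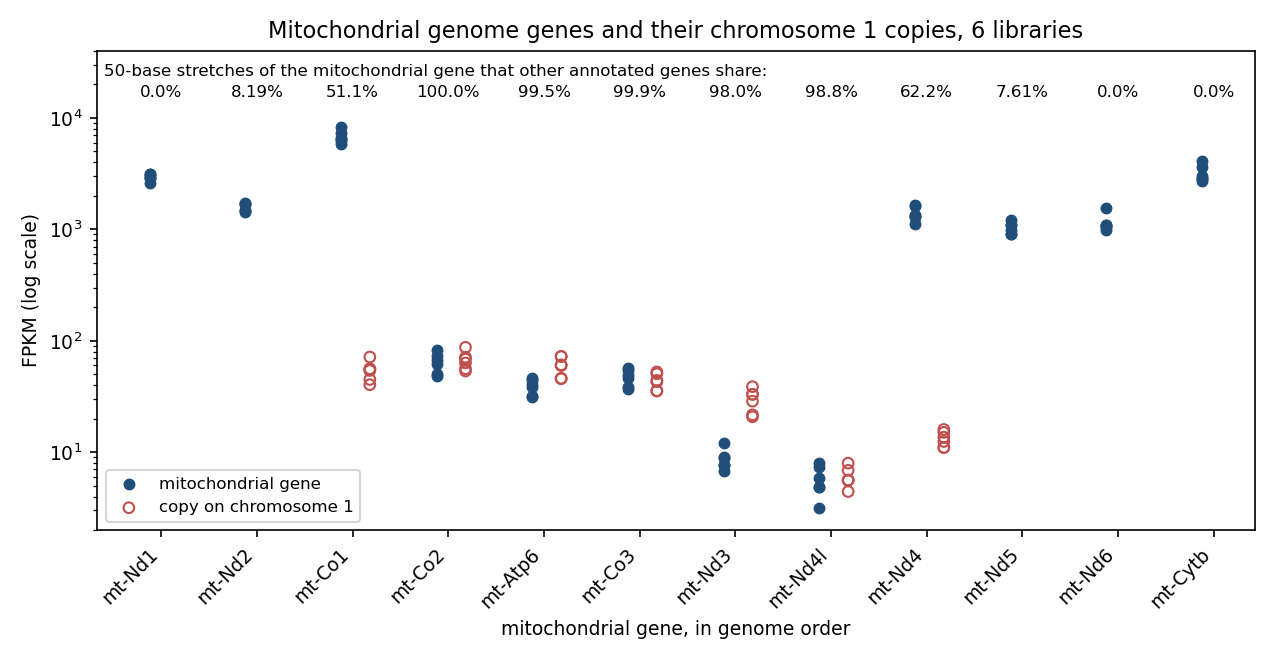
FPKM (log axis) of the mitochondrial genes in genome order, 1 filled point per library, and of their chromosome 1 copies, open circles; the percentages give how much of each mitochondrial gene's 50-base stretches other annotated genes share. mt-Atp8 is left out because it is listed at 0 in 2 libraries. The run of genes with 98% or more lies at 5.682 to 63.97 FPKM on average, in the range of the copies, between genes above 1000 FPKM.

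The nuclear genes covered a wide range of levels. Complex V held the most abundant nuclear gene, Atp5b, the catalytic beta subunit, at a mean of 371.8 FPKM, followed within the complex by the alpha subunit Atp5a1 at 233.6 FPKM. Complex IV followed with Cox6a1 at 285.4, Cox8a at 282.5 and Cox4i1 at 257.7 FPKM. In complex III the hinge protein Uqcrh was highest at 206.9 FPKM. The highest complex I genes were the accessory subunit Ndufa2, at 123.9 FPKM, and the core iron-sulphur subunit Ndufs8, at 78.4 FPKM. Complex II was led by its flavin-carrying subunit Sdha at 92.05 FPKM, and cytochrome c (Cycs) stood at 15.71 FPKM, with 26.1% of its 50-base stretches shared with other genes. Assembly factors were lower as groups, with medians of 8.15 FPKM for complex I and 6.38 FPKM for complex IV, against 60.4 FPKM for complex I core and 54.5 FPKM for complex IV subunits. A few low values belong to genes with a long listed length, such as Ndufb2 at 1.08 FPKM with 4371 bases and Atp5g1 at 13.56 FPKM with 4715 bases.

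Where complex IV has tissue isoforms, the common form was far above the other. Cox4i1 averaged 257.7 FPKM and Cox4i2, a form known from lung, 0.215 FPKM. The forms known from heart and skeletal muscle stood at 0.828 FPKM for Cox6a2, 1.90 FPKM for Cox7a1 and 0.138 FPKM for Cox8b, against 285.4 FPKM for Cox6a1, 76.1 FPKM for Cox7a2 and 282.5 FPKM for Cox8a. The testis forms Cox7b2 and Cox8c had 0 reads in all 6 libraries, and Cox6b2 had 3.93 FPKM beside 227.7 FPKM for Cox6b1. Ndufa4l2, known as a gene induced by low oxygen, averaged 0.0902 FPKM, and Ndufa4, a subunit of complex IV despite its name, 178 FPKM. The genes Atp5g1, Atp5g2 and Atp5g3, which encode the same mature c-ring subunit, stood at 13.6, 161 and 168.9 FPKM. Atp5g2 shares 38.3% of its 50-base stretches with other genes, so its share is uncertain.

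The promoters of these genes were searched for motifs of factors known to act on respiratory genes. RefSeq promoter windows (GRCm38.p6, 250 bases before to 50 after the start) were matched for 81 of the 102 nuclear genes. The letters CCGGAAG, the core bound by ETS factors such as GABP, were found on either strand in 25.9% of the 81, against 9.12% of all 27025 promoters and 20.8% of the 7769 promoters of protein-coding genes that averaged 1 FPKM or more. The palindromic NRF1 motif was found in 8.64%, against 0.977% and 2.43%. AAGATGGCG, bound by YY1, was found in 8.64%, against 1.49% and 3.76%. Any of the 3 was found in 32 of the 81 (39.5%), against 11.1% and 25.7%, and the motifs do not share letters that would let one contain another. A match describes the letters and not binding. The windows of Cox6a1, the most abundant nuclear complex IV gene (chr5:115348909-115349208, minus strand), and of Ndufs7, a core complex I subunit (chr10:80249199-80249498, plus strand), show ETS and YY1 motifs in capitals: the reverse complement of CCGGAAG before the start of Cox6a1, which also holds the NRF1 motif further upstream, and AAGATGGCG just after the start of Ndufs7.
Cox6a1: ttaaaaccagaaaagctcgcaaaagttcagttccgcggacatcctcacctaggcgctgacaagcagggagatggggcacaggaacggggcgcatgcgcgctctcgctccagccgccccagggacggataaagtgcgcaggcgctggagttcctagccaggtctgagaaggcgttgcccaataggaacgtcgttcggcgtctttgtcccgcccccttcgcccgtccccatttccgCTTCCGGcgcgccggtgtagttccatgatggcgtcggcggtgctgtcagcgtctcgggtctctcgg
Ndufs7: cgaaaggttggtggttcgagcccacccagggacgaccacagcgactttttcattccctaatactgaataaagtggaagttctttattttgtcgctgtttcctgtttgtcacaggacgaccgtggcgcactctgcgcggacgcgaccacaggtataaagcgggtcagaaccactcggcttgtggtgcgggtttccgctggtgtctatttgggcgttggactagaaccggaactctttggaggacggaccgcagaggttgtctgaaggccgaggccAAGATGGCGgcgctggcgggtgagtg

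The factors themselves were expressed in every library. Nrf1 lay at 14.2 to 16.4 FPKM in CD40LΔ5 libraries and at 14.9 to 16.6 FPKM in WT libraries, and Gabpa, the DNA-binding part of GABP, at 14.3 to 16.8 and 13.1 to 15.6 FPKM. Yy1 lay at 51.1 to 55.6 and 44.8 to 55.5 FPKM. Of the coactivators of mitochondrial biogenesis, Ppargc1a was listed at 0.244 to 0.349 and 0.258 to 0.375 FPKM and Ppargc1b at 2.17 to 2.55 and 1.68 to 2.28 FPKM. None of the 10 tested regulators passed the test in either comparison.

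The nuclear and the mitochondrial sets did not vary together in every library. The nuclear genes summed to 6431, 6496 and 7124 FPKM in CD40LΔ5 replicates 1, 2 and 3 and to 6873, 8001 and 6577 FPKM in WT replicates 1, 2 and 3. The mitochondrial genes summed to 17296.3, 19584 and 15785.4 FPKM in the CD40LΔ5 libraries and to 17909.9, 21826.9 and 17011.4 FPKM in the WT libraries. WT replicate 2 was highest for both sets, while CD40LΔ5 replicate 3 was second highest for the nuclear and lowest for the mitochondrial set. The ratio of mitochondrial to nuclear FPKM was 2.69, 3.01 and 2.22 in the CD40LΔ5 libraries and 2.61, 2.73 and 2.59 in the WT libraries. The widest gap in the ratio, between CD40LΔ5 replicates 2 and 3, lay within 1 labelled group. Mitochondrial genes took 2.2, 2.49 and 2% of reads in the CD40LΔ5 libraries and 2.25, 2.76 and 2.16% in the WT libraries.

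**Figure D2:**
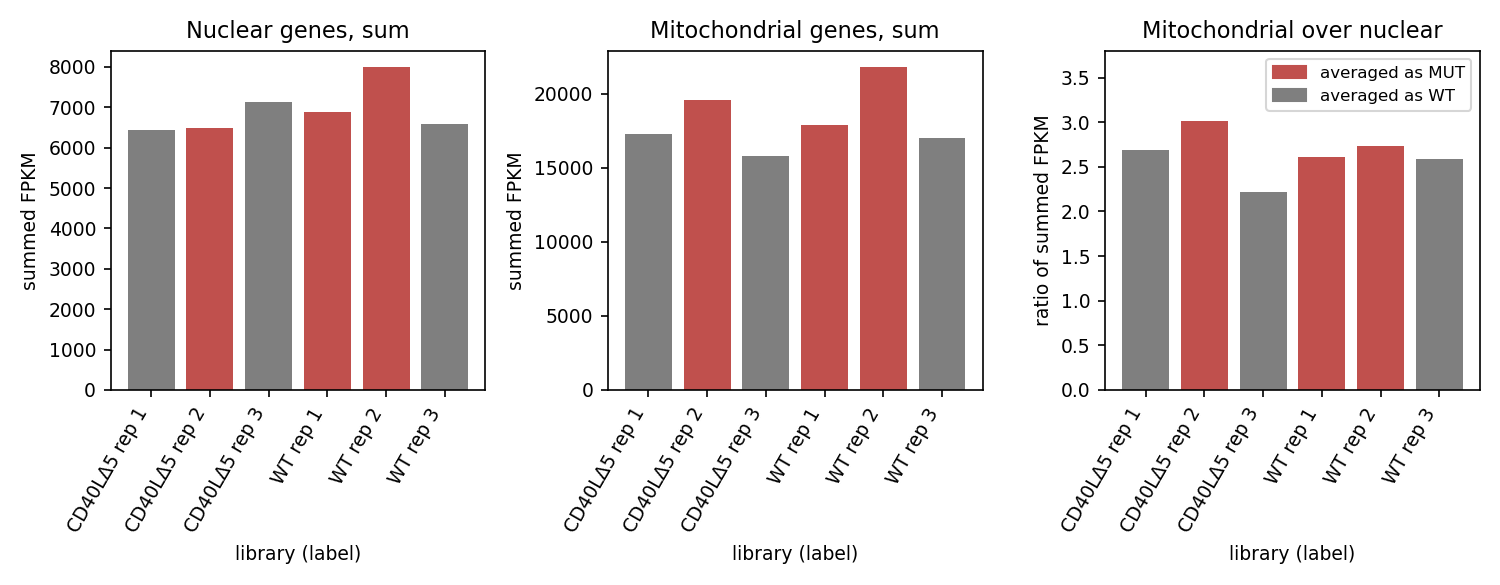
Summed FPKM of the 102 nuclear genes (left) and of the 13 mitochondrial genes (middle), and their ratio (right), 1 bar per library under its label; colour shows whether the deposited table of means averaged it as MUT or as WT. WT replicate 2 has the tallest bar for both sums, and the ratio runs between 2.22 and 3.01, both in libraries labelled CD40LΔ5.

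Gene by gene, WT replicate 2 was the highest library for 64 of the 95 tested nuclear genes and for 10 of the 12 mitochondrial genes. CD40LΔ5 replicate 3 was above the gene's mean for 60 of 95 nuclear genes and for 0 of 12 mitochondrial genes, beside 3792 of all 11252 tested genes. The median deviation of the mitochondrial genes from their mean over the libraries, on the log2(FPKM + 1) scale, was 0.02, 0.03 and -0.19 in CD40LΔ5 replicates 1, 2 and 3 and -0.02, 0.28 and -0.13 in WT replicates 1, 2 and 3. That of the nuclear genes was -0.09, -0.06 and 0.03 in the CD40LΔ5 libraries and -0.01, 0.22 and -0.07 in the WT libraries.

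Gene length moved with the nuclear pattern. In WT replicate 2 all 44 tested nuclear genes with a listed length under 1000 bases were above their mean (median 0.27), and 42 of the 51 longer ones were (median 0.15). Of all tested genes, 1076 of 1442 under 1000 bases were above their mean in that library (median 0.18), and 4597 of 9810 longer ones (median -0.01). The plasma cell marker sum was 1545, 716.7 and 3746 FPKM in the CD40LΔ5 libraries and 898.8, 3837 and 3801 FPKM in the WT libraries. The part of length and of cell makeup in the pattern was not tested. In bulk samples, fewer cells of a type and less RNA per cell cannot be told apart.

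**Figure D3:**
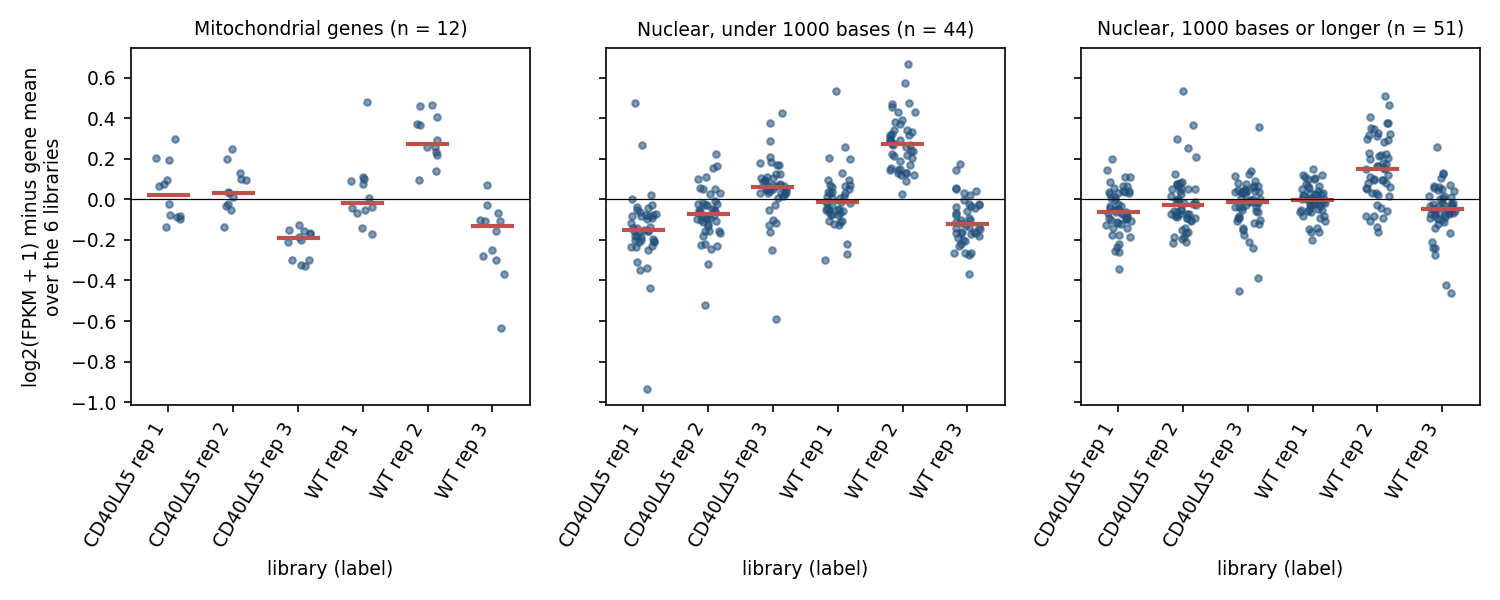
Deviation of each tested gene from its own mean over the 6 libraries, on the log2(FPKM + 1) scale, 1 point per gene and library, with red bars at the medians. In WT replicate 2 the medians are 0.28 for mitochondrial genes, 0.27 for short and 0.15 for longer nuclear genes, and in CD40LΔ5 replicate 3 all 12 mitochondrial genes lie below 0.

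The nuclear parts of the complexes differed in how far they moved between libraries. Complex II, the one with no mitochondrial subunit, summed to 230.3 to 247.3 FPKM in CD40LΔ5 libraries and to 234.9 to 252.6 FPKM in WT libraries, a range of 1.10-fold. Counting nuclear subunits only, the complex I core ranged 1.14-fold, complex V 1.20-fold, and complex IV and complex III 1.32-fold each. The complex I accessory subunits ranged 1.34-fold. The mitochondrial set ranged 1.38-fold. Single nuclear genes ranged up to 3.98-fold, for Cox6b2, and the median range was 1.35 for the nuclear genes, 1.49 for the mitochondrial genes and 1.35 for all tested genes.

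By the labels, no respiratory chain gene passed the test between CD40LΔ5 and WT libraries. The count was 0 of 107 at an adjusted p under 0.05 (limma on log2(FPKM + 1), Benjamini-Hochberg over 11252 genes), where 0 of all genes passed too, a background of 0%. No adjusted p lay under 0.999993. There was 1 of the 107 at an unadjusted limma p under 0.05, with lower values, against 103 higher and 36 lower genes of all 11252 tested. With voom on whole reads the count was also 0 of 107.

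The values themselves leaned to lower levels in CD40LΔ5 libraries. Of the nuclear genes 82 of 95 had lower and 13 higher values, with a median log2 difference of -0.08, and all 12 mitochondrial genes had lower values, with a median of -0.10; the median of all genes was 0.01. Without WT replicate 2 the lean was gone: 46 nuclear genes had lower and 49 higher values (median 0.00), and 3 mitochondrial genes had lower and 9 higher values (median 0.02). Without CD40LΔ5 replicate 3, 7 mitochondrial genes had lower and 5 higher values (median -0.02). After a correction for gene length 81 nuclear genes had lower and 14 higher values (median -0.08), and 11 of 12 mitochondrial genes lower values (median -0.08). Scaled by the median ratio, 88 nuclear genes had lower and 7 higher values (median -0.10), and all 12 mitochondrial genes lower values (median -0.12). The log2 ratio of mitochondrial to nuclear FPKM averaged 1.389 ± 0.224 in CD40LΔ5 libraries and 1.400 ± 0.0416 in WT libraries (SD, n = 3 each), and the groups overlapped.

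For 3 of 107 genes every CD40LΔ5 library lay below every WT library, a share of 2.8% beside 1.32% of all tested genes, and for 0 of 107 every CD40LΔ5 library lay above, beside 2.98% of all tested genes. Ndufaf2, a complex I assembly factor, was listed at 7.1, 8.183 and 9.513 FPKM in the CD40LΔ5 libraries and at 10.84, 11.14 and 9.608 FPKM in the WT libraries. The groups came within 0.1 FPKM of each other, and 64.1% of its 50-base stretches are shared with other genes, so its level is uncertain. Its log2 difference was -0.32 ± 0.12 (SE; limma, adjusted p = 0.999993). Cox8a lay at 286.6, 253.3 and 271.8 FPKM in the CD40LΔ5 libraries and at 308.5, 286.8 and 288.3 FPKM in the WT libraries (log2 difference -0.12 ± 0.10, SE). Its groups nearly touched, at 286.6 and 286.8 FPKM. Atp5d, the delta subunit of complex V, lay at 111.4, 111.7 and 111.4 FPKM in the CD40LΔ5 libraries and at 125.5, 112.0 and 121.3 FPKM in the WT libraries, its groups nearly touching (log2 difference -0.10 ± 0.08, SE).

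Placed as in the table of means, no respiratory chain gene passed the test either. The count was 0 of 107 between MUT-mean and WT-mean libraries, while 3 of all 11252 genes passed (0.0267%). At an unadjusted limma p under 0.05 there were 9 of the 107, all with higher values in the MUT-mean libraries. Of all 11252 tested genes, 1057 were higher and 406 lower at that p, so the share in the respiratory chain was no larger. With voom the count was again 0 of 107.

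Here the values leaned the other way. All 12 tested mitochondrial genes had higher values in the MUT-mean libraries (median log2 difference 0.25), and so did 75 of 95 nuclear genes (median 0.11), beside a median of 0.05 over all genes. Under 1000 bases, 37 of 44 nuclear genes had higher values (median 0.15), beside 1028 of 1442 of all tested genes (median 0.16). Among longer genes it was 38 of 51 nuclear genes (median 0.08), beside 5951 of 9810 of all tested genes (median 0.04). With libraries scaled by the median ratio, 65 nuclear genes had higher and 30 lower values (median 0.06) and 11 of 12 mitochondrial genes higher values (median 0.20). After a correction for gene length 48 nuclear genes had higher and 47 lower values (median 0.01), and 10 of 12 mitochondrial genes higher values (median 0.17). Without WT replicate 2, 52 nuclear genes had higher and 43 lower values (median 0.02), and 11 of 12 mitochondrial genes higher values (median 0.17). With the replicate number as a block, only replicate 1 has a library in each set. That difference therefore rests on WT replicate 1 against CD40LΔ5 replicate 1 alone and cannot check the lean over the 6 libraries. In it, 7 mitochondrial genes had higher and 5 lower values (median 0.04), and 68 nuclear genes higher and 27 lower values (median 0.09).

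The summed mitochondrial FPKM did not overlap between these sets, with 17909.9 to 21826.9 in MUT-mean libraries and 15785.4 to 17296.3 in WT-mean libraries. The nuclear sums overlapped, with 6496 to 8001 FPKM in MUT-mean libraries and 6431 to 7124 FPKM in WT-mean libraries. The log2 ratio of the sums averaged 1.474 ± 0.107 in MUT-mean libraries and 1.315 ± 0.148 in WT-mean libraries (SD, n = 3 each), with overlap. Markers of other cell types moved with these sets: the summed NK cell markers were 31.48 to 37.74 FPKM in MUT-mean libraries and 13.73 to 20.05 FPKM in WT-mean libraries, and the T cell markers 16.56 to 17.69 and 11.06 to 13.28 FPKM. Single markers of other lists had lower values in MUT-mean libraries: all 4 germinal centre markers (median log2 difference -1.37), all 4 plasma cell markers (-0.93) and all 4 neutrophil markers (-1.65). Their summed levels overlapped, at 33.14 to 75.54 FPKM in MUT-mean libraries and 64.39 to 106.2 FPKM in WT-mean libraries for germinal centre markers, 716.7 to 3837 and 1545 to 3801 FPKM for plasma cell markers, and 56.68 to 63.15 and 33.51 to 425.7 FPKM for neutrophil markers. All 5 macrophage markers (median 0.78) and all 4 erythroid markers (0.62) had higher values in MUT-mean libraries, with sums of 82.07 to 196.4 and 54 to 82.32 FPKM for macrophage markers and 293 to 450.3 and 123.7 to 424.7 FPKM for erythroid markers. None of these markers passed the test, and the part of cell makeup in the mitochondrial values was not tested.

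For 16 of 107 genes every MUT-mean library lay above every WT-mean library, a share of 15% beside 12.1% of all tested genes, near the background. Of these, 6 were among the 12 mitochondrial genes (mt-Nd1, mt-Nd2, mt-Nd4, mt-Nd6, mt-Cytb and mt-Co1), which share transcripts and are not independent, and 10 among the 95 nuclear genes. mt-Nd4 had the smallest unadjusted p of the mitochondrial genes, with 1630, 1332 and 1644 FPKM in the MUT-mean libraries and 1284, 1115 and 1312 FPKM in the WT-mean libraries. Its log2 difference was 0.31 ± 0.14 (SE; limma, adjusted p = 0.403). mt-Cytb averaged 3575 ± 539 FPKM in MUT-mean libraries and 2816 ± 77.3 FPKM in WT-mean libraries (SD, n = 3 each). mt-Nd5 was the exception among the abundant genes, with 1040 ± 153 and 1033 ± 102 FPKM and a log2 difference of 0.00 ± 0.15 (SE).

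Of the nuclear genes, Cox17 had the smallest p in this comparison. Cox17 is the chaperone that brings copper for complex IV. It was listed at 4.659, 3.344 and 4.558 FPKM in the MUT-mean libraries and at 2.084, 1.994 and 1.837 FPKM in the WT-mean libraries, with no overlap. Its log2 difference was 0.79 ± 0.13 (SE), with adjusted p = 0.272 by limma, which misses the threshold. By the labels its values were 2.912 ± 1.51 FPKM in CD40LΔ5 and 3.246 ± 1.36 FPKM in WT libraries (SD, n = 3 each), with overlap.

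The 9 genes with an unadjusted limma p under 0.05 were picked by that p, and none of them passed the test. Of the 7 tested complex I assembly factors, 2 were among them. Ndufaf6 lay at 6.438, 5.575 and 7.258 FPKM in the MUT-mean libraries and at 4.659, 4.511 and 3.651 FPKM in the WT-mean libraries (log2 difference 0.49 ± 0.12, SE; limma, adjusted p = 0.343). Ndufaf5, which modifies the core subunit Ndufs7, lay at 10.17, 8.095 and 8.703 FPKM in the MUT-mean libraries and at 7.053, 7.237 and 7.642 FPKM in the WT-mean libraries. Ndufs7 itself lay at 65.87, 68.13 and 70.82 FPKM in the MUT-mean libraries and at 56.75, 59.29 and 61.91 FPKM in the WT-mean libraries, without overlap (log2 difference 0.20 ± 0.07, SE). The other genes of the 9 were the accessory complex I subunits Ndufb5, Ndufb6 and Ndufa6, Uqcrh and Atp5s, with log2 differences of 0.21 to 0.44.

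Of the 15 complex V genes, 12 had higher values in the MUT-mean libraries (median log2 difference 0.08). The 3 with lower values included its most abundant subunits, Atp5a1 and Atp5b. Atp5a1 lay at 204.8, 232.2 and 219.7 FPKM in the MUT-mean libraries and at 251.1, 240.0 and 253.8 FPKM in the WT-mean libraries, and Atp5b at 325.6, 378.2 and 356.8 and at 382.2, 388.6 and 399.2 FPKM. Neither pair of groups overlapped. Their log2 differences were -0.18 ± 0.09 and -0.14 ± 0.09 (SE), and neither passed the test (limma, adjusted p = 0.409 and 0.509). For all tested genes the share with this order was 4.79%, and for the respiratory chain it was 2.8%, 3 of 107. Ndufa10 was the only other gene whose MUT-mean libraries all lay below its WT-mean libraries, at 31.13 ± 2.23 and 33.27 ± 0.299 FPKM (SD, n = 3 each). Complex II did not differ beyond its spread, at 242.0 ± 11.2 FPKM in MUT-mean libraries and 241.3 ± 6.21 FPKM in WT-mean libraries.

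**Figure D4:**
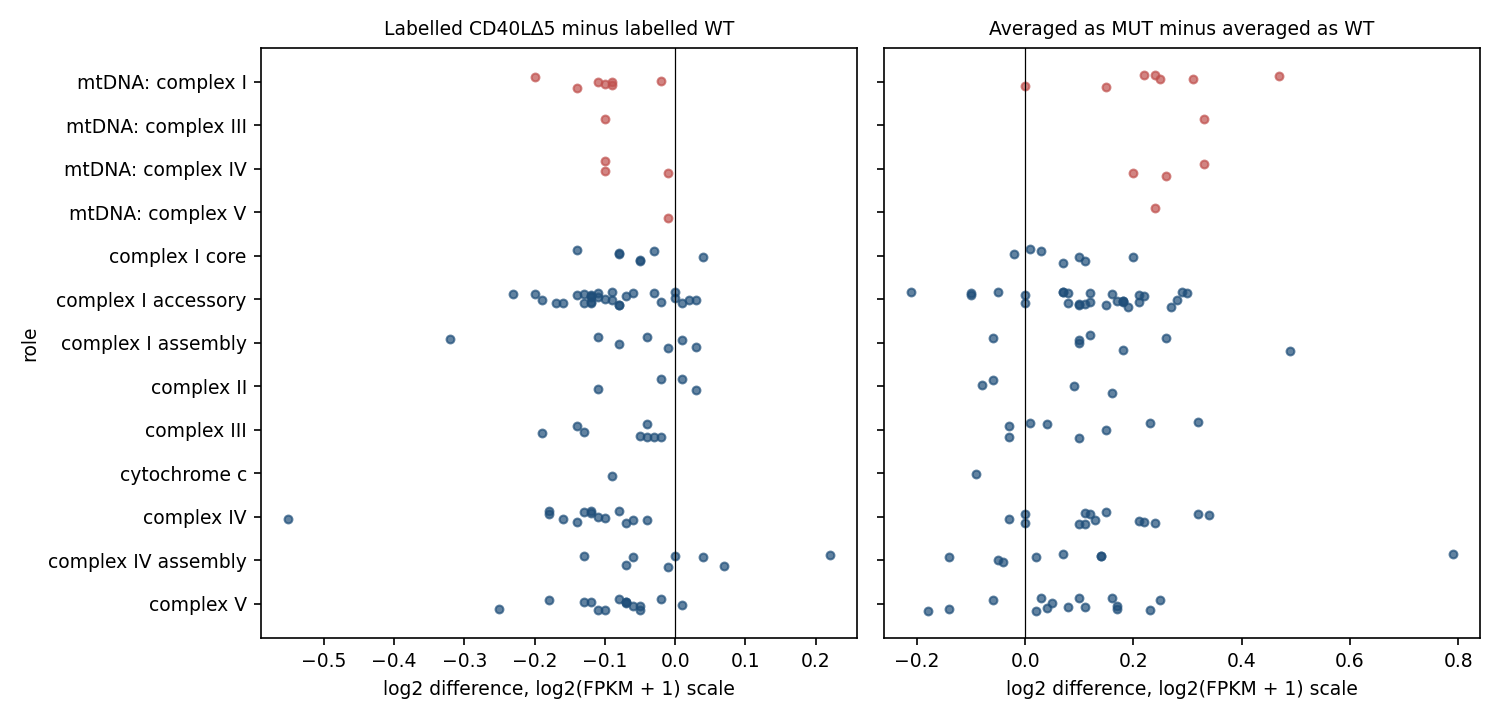
Log2 difference on the log2(FPKM + 1) scale of each tested gene, by role, for labelled CD40LΔ5 minus WT libraries (left) and MUT-mean minus WT-mean libraries (right); red points are mitochondrial genes, blue points nuclear ones, and Atp5s and Atp5sl are left out. On the left all red points lie below 0 (median -0.10) and on the right none does (median 0.25), with Cox17 at 0.79 the highest nuclear point; no gene passed the test on either side.

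Genes that maintain and express mitochondrial DNA were compared beside the chain. Of 36 tested, 0 passed in either comparison, and their median log2 difference was -0.00 by the labels and 0.12 by the table of means, where 31 of 36 had higher values in MUT-mean libraries. The smallest p in the table of means belonged to Ssbp1, which coats single-stranded mitochondrial DNA, at 24.8, 20.6 and 26.9 FPKM in MUT-mean libraries and 19.9, 15.8 and 17.7 FPKM in the WT-mean libraries (log2 difference 0.42 ± 0.12, SE; limma, adjusted p = 0.349). The 17 genes of the tricarboxylic acid cycle, which feeds the chain with NADH and succinate, had medians of -0.04 and -0.03, with 0 passing; citrate synthase, Cs, lay at 66.8 to 79 FPKM in CD40LΔ5 libraries and at 71.4 to 82.1 FPKM in WT libraries.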

How the data were processed

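The authors deposited FPKM per library in 2 tables with equal values, and a table of group means. Tools listed in the submitters' processing notes, with no role given, are STAR, CASAVA 1.8.2 and DESeq2, and the build listed is mm9; the files' coordinates are those of GRCm38. The counting tool is not given in the sources used here. FPKM times listed length gave whole reads for 100% of values (tolerance 0.01); a single read on 1 kb equals 0.0359 to 0.0411 FPKM.

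All genes that averaged 1 FPKM or more (11252) were fitted with limma 3.58.1 in R 4.3.3 (trend) on log2(FPKM + 1), two-sided, Benjamini-Hochberg, threshold 0.05, without covariates; this scale understates changes of low genes. The procedure was tested on simulated data. Shared 50-base stretches were counted over the transcripts of GENCODE M21, in which all 115 identifiers were found and 78 had exactly the listed start and end.

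The genes, lists and tests were chosen with earlier results of these data known. Named genes are the mitochondrial genes, the 2 highest and smallest-p members per role, isoform pairs and the smallest-p members of other lists. Others, such as Atp5d or other genes picked for groups without overlap, were chosen after their values were seen, as were length correction, adding the copies' reads and leaving out the 5 shared genes. No count model was fitted, as the unit is FPKM; voom was run on the whole reads.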

Additional observations from a re-analysis of the deposited data

How the results depend on the processing

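No respiratory chain gene was called in either comparison under any of the following settings. They were pseudocounts of 0.1 and 0.5 FPKM, no filter or a mean of at least 5 FPKM, and other scalings. The rest were no variance trend, voom, length correction, the copies' reads added, or any 1 library left out. With the replicate block, none was called by the labels. The count of all genes called by the table of means was 3 in the main fit. It was 5 with a pseudocount of 0.1 FPKM, 1 without a filter and 0 with a mean of at least 5 FPKM. With voom it was 1, and with 1 library left out 1 to 17. The median of the mitochondrial genes by the table of means, 0.25, was 0.17 to 0.34 with 1 library left out. With the replicate block it was 0.04 (7 genes with higher and 5 with lower values). Both replicate 2 libraries are MUT-mean and both replicate 3 libraries WT-mean. The blocked value therefore rests on WT replicate 1 against CD40LΔ5 replicate 1 alone. With 1 library left out, the labels gave -0.17 to 0.02 for that median and -0.14 to 0.00 for the nuclear one. Same-numbered libraries correlated at -0.385, 0.0578 and 0.376 in their deviations from the means of the labelled groups. With 3 libraries per group and mixed signs, these values cannot settle whether the numbers pair the samples. Of the named genes' values under other settings, 0 of 779 by the labels and 48 of 762 by the table of means moved by more than 1 SD. The sign was the other one for 51 of the 779 and for 59 of the 762. The few reads on mt-Atp8 and on the tissue isoforms near 0 allow no comparison of their levels. The 5 mitochondrial genes with at least 98% shared sequence are uncertain, and so are the partly shared mt-Co1 and mt-Nd4 and the mitochondrial sums.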

Other observations

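Other mitochondrial gene groups, described by count and median with none called in either comparison, are given here as values. Of 76 tested mitochondrial ribosomal protein genes, which serve the translation of the mitochondrial mRNAs, 59 had higher values in MUT-mean libraries (median log2 difference 0.08), and 19 of 76 higher values in CD40LΔ5 libraries (median -0.04). Mrpl52, of the large subunit, lay at 125, 135 and 141 FPKM in MUT-mean libraries and at 103, 93.1 and 88.8 FPKM in the WT-mean libraries, without overlap (log2 difference 0.49 ± 0.09, SE; limma, adjusted p = 0.343). By the labels its libraries overlapped, at 107 ± 16.1 FPKM in CD40LΔ5 and 122 ± 28.7 FPKM in WT libraries (SD, n = 3 each).

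The 22 tested import genes had a median of 0.09 by the table of means and -0.03 by the labels. Hspe1, the co-chaperonin of the matrix, lay at 170, 168 and 188 FPKM in MUT-mean libraries and at 128, 164 and 126 FPKM in the WT-mean libraries, also without overlap. The 14 carrier genes had medians of -0.02 and -0.07. Among them Mpc1, a subunit of the pyruvate carrier, lay at 8.84, 5.87 and 6.67 FPKM in MUT-mean libraries and at 5.74, 3.55 and 3.32 FPKM in the WT-mean libraries (log2 difference 0.66 ± 0.21, SE; limma, adjusted p = 0.352).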
